A study of Mus musculus with 12 samples.

Results

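Immediate early genes are described here as 10 genes, *Fos*, *Jun*, *Junb*, *Jund*, *Egr1*, *Atf3*, *Myc*, *Ier2*, *Ier3*, and *Btg2*, chosen by symbol from the 22456 genes whose RPKM, a read count scaled to transcript length and library depth, was deposited for each liver library. All 10 were in the table, and all 10 passed the filter on low values used for testing, a mean of at least 0.5 RPKM, as did 11507 genes in total. The 10 genes and the gene lists further on were chosen with earlier results of these data known. Counts set beside the share of all genes are therefore a description and no test of a set. The 12 libraries came from male BALB/cByJ mice of 2 to 8 months in 4 groups of 3 libraries: *Lpin1*+/+ (wild-type) fasted, *Lpin1*+/+ refed, *Lpin1*-/- fasted, and *Lpin1*-/- refed. Fasted mice were single-housed without food for 16 hours, and refed mice received food for 5 hours after the same fast, so the effects of food and of the hour of the day cannot be told apart. The *Lpin1*-/- animals are fatty liver dystrophy (*fld*) mice, which lack lipin 1 in every tissue from conception and not only in liver, and the *Lpin1*+/+ animals were littermates on the same background. The study asked how liver lacking lipin 1, a phosphatidate phosphatase that also acts with transcriptional regulators, adapts to fasting.

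Immediate early genes are transcribed within minutes of a stimulus without the need for new protein synthesis. Signals carried by MAP kinases and cyclic AMP act on factors already bound near their starts, such as serum response factor with its ternary complex factors and CREB, and the resulting mRNAs usually decay fast. Many of the products are transcription factors, among them the Fos and Jun proteins that pair to form AP-1, and in liver they are known to respond to partial hepatectomy, cytokines, hormones, and the handling of tissue.

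The proximal promoters are shown first as a description of sequence, and their part in the levels below was not tested. Sequences of RefSeq (assembly GRCm38.p6) were matched by symbol for 7 of the 10 genes, *Fos*, *Jun*, *Junb*, *Jund*, *Atf3*, *Ier3*, and *Btg2*. The lines below, for *Fos*, *Jun*, *Atf3*, and *Btg2*, each give the 250 bases before the annotated start, 5′ to 3′ on the strand of the gene. The windows of *Junb*, *Jund*, and *Ier3* were searched in the same way and are not printed. The start is that of the RefSeq entry, which for *Atf3* lies inside the gene span given further on and for *Jund* lies before it. Capitals mark matches to the cyclic AMP response element TGACGTCA, its core TGACG (read on either strand, and contained in the full element), the *jun* site TGACATCA, the AP-1 site TGAGTCA, or the CArG box bound by serum response factor.

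Fos: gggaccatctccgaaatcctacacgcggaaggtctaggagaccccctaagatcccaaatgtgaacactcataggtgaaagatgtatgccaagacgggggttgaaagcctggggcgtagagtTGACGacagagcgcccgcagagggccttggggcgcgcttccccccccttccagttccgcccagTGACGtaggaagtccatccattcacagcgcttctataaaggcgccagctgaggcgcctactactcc
Jun: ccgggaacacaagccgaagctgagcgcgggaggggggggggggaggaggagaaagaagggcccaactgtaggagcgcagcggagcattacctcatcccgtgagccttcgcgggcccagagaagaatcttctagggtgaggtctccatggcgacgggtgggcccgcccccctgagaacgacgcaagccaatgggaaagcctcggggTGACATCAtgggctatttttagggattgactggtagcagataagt
Atf3: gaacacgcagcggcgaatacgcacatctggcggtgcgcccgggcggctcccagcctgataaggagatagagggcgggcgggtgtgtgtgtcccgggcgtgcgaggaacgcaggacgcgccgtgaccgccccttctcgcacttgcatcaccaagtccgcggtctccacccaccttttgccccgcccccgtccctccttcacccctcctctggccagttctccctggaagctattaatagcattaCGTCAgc
Btg2: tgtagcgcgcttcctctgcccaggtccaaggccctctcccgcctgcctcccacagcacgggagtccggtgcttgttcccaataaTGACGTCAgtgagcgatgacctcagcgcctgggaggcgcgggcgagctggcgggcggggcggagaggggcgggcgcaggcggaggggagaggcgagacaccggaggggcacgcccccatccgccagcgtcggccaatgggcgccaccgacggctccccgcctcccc

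The windows lie at chr12:85473640-85473889 (plus strand) for *Fos*, chr4:95052223-95052472 (minus) for *Jun*, chr1:191183334-191183583 (minus) for *Atf3*, and chr1:134079156-134079405 (minus) for *Btg2*. The *Fos* window held the core at −129 and −66 and a TATAAA at −33, counted in bases from the start to the first base of the match. The *Jun* window held TGACATCA at −45, and the *Atf3* window held the core on the opposite strand at −7, next to the start. The *Btg2* window held the full TGACGTCA at −166. The core was found in 4 of the 7 genes, *Fos*, *Junb*, *Atf3*, and *Btg2*, and in 17.8% of 32851 RefSeq promoter windows of the same length. The full element was in 1.55% of those windows, TGACATCA in 2.93%, TGAGTCA in 4.46%, and the CArG box in 1.47%. TGAGTCA and the CArG box were in none of the 7 windows, and the *Jund* and *Ier3* windows held no match to the 5 patterns in capitals. Sequence further from the start was not searched, so sites there would not have been seen. These matches describe letters only and were not tested for binding.

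Each value below is an RPKM. The estimated depth was 94.0 to 125.7 M mapped reads per library, which put the lowest member value, that of *Ier3*, at about 26 reads (counting error 19.7%), and the lowest value of *Fos* at about 58 reads (13.2%). For the other 8 genes it put at least about 103 reads behind every value. *Lpin1* was 21.96, 0.726, and 1.76 in fasted *Lpin1*+/+, 2.92, 0.784, and 2.76 in refed *Lpin1*+/+, and 0.00573 to 0.0597 in the 6 *Lpin1*-/- libraries, so the genotypes did not overlap. Hepatocyte markers such as *Alb* and *Apoa1* summed to between 34270 and 80330 RPKM in every library. Libraries that stood apart were fasted *Lpin1*+/+ replicate 1 (in *Lpin1*), fasted *Lpin1*-/- replicate 1 (a Kupffer cell marker sum of 1014, against 374 and 517 in the others of its group), and refed *Lpin1*+/+ replicate 2 (980, against 113 and 185, with the lowest hepatocyte sum). Counts of altered members are therefore given below also without these 3 libraries together, a choice made after seeing the data.

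**Figure D1:**
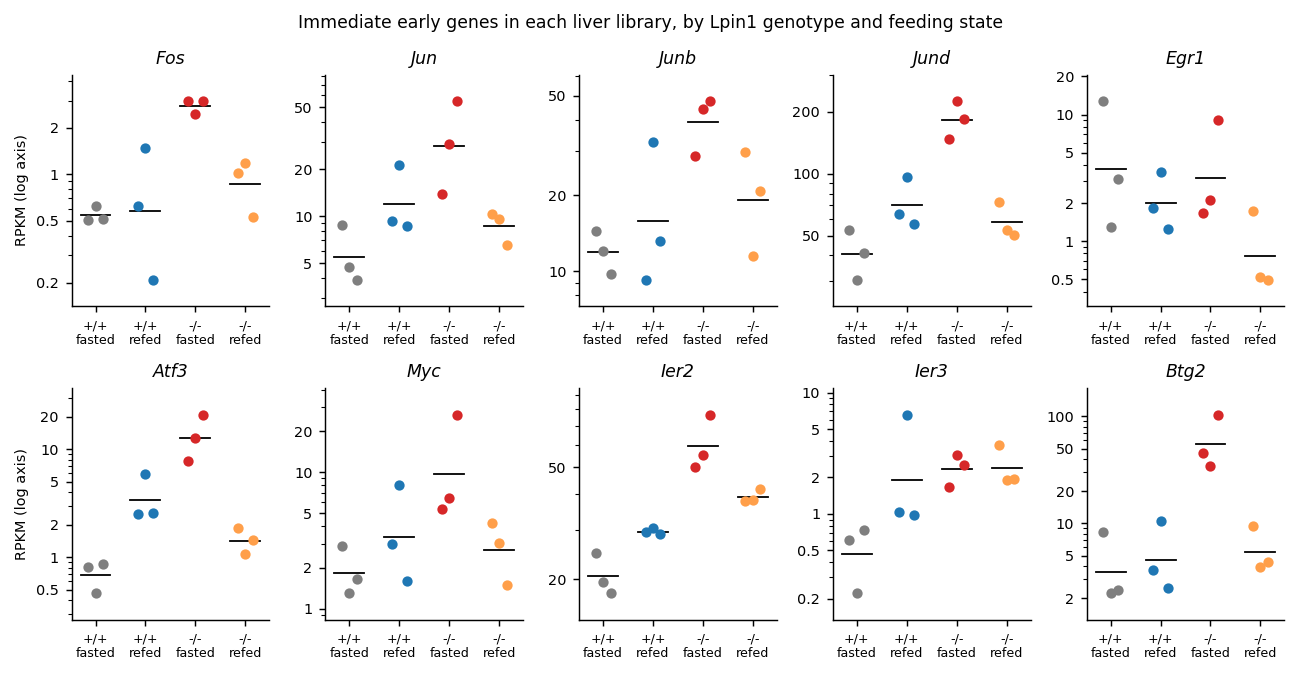
RPKM (log axis) of each immediate early gene in each library, with 4 groups of 3 libraries on the horizontal axis. Points are libraries in replicate order from left to right, and lines are geometric means. Mean RPKM was highest in fasted *Lpin1*-/- liver for 8 of the 10 genes and lowest in fasted *Lpin1*+/+ liver for 9 of 10.

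*Fos*, *Jun*, *Junb*, and *Jund* encode subunits of AP-1. *Fos* (ENSMUSG00000021250.13, chromosome 12 of GRCm38, 85473890 to 85477273) was 2.96, 2.46, and 2.97 RPKM in fasted *Lpin1*-/- liver and 0.509, 0.627, and 0.511 in fasted *Lpin1*+/+ liver. After refeeding it was 1.02, 1.18, and 0.531 in *Lpin1*-/- and 0.625, 1.48, and 0.209 in *Lpin1*+/+. Fasted *Lpin1*-/- libraries were thus above all 9 others, and the other 3 groups overlapped. *Jun* (ENSMUSG00000052684.4, chromosome 4, 95049034 to 95052222, minus strand, 1 exon) was 14.0, 29.0, and 54.7 in fasted *Lpin1*-/- and 8.76, 4.73, and 3.92 in fasted *Lpin1*+/+. In refed liver it was 10.4, 9.62, and 6.53 in *Lpin1*-/- and 9.34, 21.4, and 8.72 in *Lpin1*+/+. The fasted genotypes did not overlap, but replicate 2 of refed *Lpin1*+/+ lay within the range of fasted *Lpin1*-/-.

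*Junb* (ENSMUSG00000052837.6, chromosome 8, 84974484 to 84978718, minus strand), whose protein often opposes c-Jun at AP-1 sites, was 28.8, 44.3, and 47.4 RPKM in fasted *Lpin1*-/- and 14.5, 12.0, and 9.72 in fasted *Lpin1*+/+. Its refed values spanned 11.4 to 29.7 in *Lpin1*-/- livers and 9.25 to 32.6 in *Lpin1*+/+ livers, so that refed libraries of both genotypes reached the fasted *Lpin1*-/- range. *Jund* (ENSMUSG00000071076.6, chromosome 8, 70698949 to 70700616, 1 exon) is the Jun protein most cells make without stimulation, and it had the highest level per length of the 10 genes. It was 147, 225, and 183 RPKM in fasted *Lpin1*-/-, 53.4, 30.5, and 40.9 in fasted *Lpin1*+/+, 72.5, 53.4, and 50.4 in refed *Lpin1*-/-, and 63.9, 95.7, and 56.9 in refed *Lpin1*+/+. Fasted *Lpin1*-/- libraries lay above all others, fasted *Lpin1*+/+ libraries lay below all refed *Lpin1*+/+ libraries, and the refed genotypes overlapped. Exons of *Jun*, *Junb*, and *Jund* overlap those of *Junos*, *Prdx2*, and *Gm11175* on the opposite strand. The kit marks strand, but the strand setting of the counting was not given in the sources used here, so reads of these pairs may not have been separated.

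*Egr1* (ENSMUSG00000038418.7, chromosome 18, 34859823 to 34864984) encodes a zinc finger transcription factor and is the classical target of the ternary complex factors. Its RPKM was 12.7, 1.30, and 3.09 in fasted *Lpin1*+/+ and 1.66, 2.13, and 9.04 in fasted *Lpin1*-/-. After refeeding it was 1.84, 3.51, and 1.25 in *Lpin1*+/+ and 1.72, 0.523, and 0.497 in *Lpin1*-/-. One library in each fasted group was far above the other two, and all 4 groups overlapped. It was the only one of the 10 genes whose mean was highest in fasted *Lpin1*+/+ liver.

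*Atf3* (ENSMUSG00000026628.13, chromosome 1, 191170296 to 191218039, minus strand) encodes a stress-induced bZIP factor that can pair with Jun proteins. Its RPKM was 7.69, 12.7, and 20.9 in fasted *Lpin1*-/- and 0.810, 0.466, and 0.858 in fasted *Lpin1*+/+, a ratio of group means of 19.3. Refed libraries lay between these ranges, at 1.85, 1.06, and 1.44 in *Lpin1*-/- and 2.53, 5.84, and 2.59 in *Lpin1*+/+. No pair of the 4 groups overlapped, and the order of the genotypes was opposite in the fasted and the refed state. *Myc* (ENSMUSG00000022346.15, chromosome 15, 61985391 to 61990374) encodes the transcription factor c-Myc, a driver of growth and ribosome production. It was 5.37, 6.49, and 26.4 in fasted *Lpin1*-/- and 2.86, 1.30, and 1.64 in fasted *Lpin1*+/+, while refed libraries spanned 1.49 to 4.27 in *Lpin1*-/- mice and 1.58 to 8.06 in *Lpin1*+/+ mice. Fasted groups did not overlap, and replicate 3 of fasted *Lpin1*-/- was well above the rest.

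*Ier2* and *Ier3* are named as immediate early response genes. *Ier2* (ENSMUSG00000053560.4, chromosome 8, 84661331 to 84662852, minus strand, 1 exon) was 50.2, 55.0, and 76.7 RPKM in fasted *Lpin1*-/-, 24.8, 19.5, and 17.9 in fasted *Lpin1*+/+, 37.8, 38.2, and 41.8 in refed *Lpin1*-/-, and 29.3, 30.3, and 29.0 in refed *Lpin1*+/+. Its 4 groups did not overlap, and the order from low to high was fasted *Lpin1*+/+, refed *Lpin1*+/+, refed *Lpin1*-/-, and fasted *Lpin1*-/-. *Ier3* (ENSMUSG00000003541.6, chromosome 17, 35821684 to 35822923), a regulator of survival under stress, was 1.66, 3.09, and 2.52 in fasted *Lpin1*-/- and 0.611, 0.223, and 0.733 in fasted *Lpin1*+/+. It was 3.68, 1.90, and 1.94 in refed *Lpin1*-/- and 1.04, 6.60, and 0.988 in refed *Lpin1*+/+, so that only the fasted *Lpin1*+/+ libraries lay below all others.

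*Btg2* (ENSMUSG00000020423.6, chromosome 1, 134075170 to 134079120, minus strand) encodes an antiproliferative protein that binds the CCR4-NOT deadenylase and is a known target of p53. It was 45.8, 34.7, and 104 RPKM in fasted *Lpin1*-/- and 8.27, 2.24, and 2.37 in fasted *Lpin1*+/+, a ratio of group means of 14.3. Refed libraries were at 9.41, 3.90, and 4.40 in *Lpin1*-/- and at 3.66, 10.5, and 2.48 in *Lpin1*+/+. Every fasted *Lpin1*-/- library was above every other library, and the remaining 3 groups overlapped.

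In fasted liver, loss of *Lpin1* was accompanied by higher mRNA of 8 of the 10 immediate early genes, all but *Egr1* and *Ier3*. *Atf3* and *Btg2* differed most, with ratios of group means of 19.3 and 14.3, and those of the other 6 ran from 2.92 (*Ier2*) to 6.60 (*Myc*). Of all 11507 genes tested, 18.8% were altered and 5.63% were higher. The median log2 fold change of RPKM + 1 was 1.79 over the 10 genes and −0.14 over all genes. Groups did not overlap, with *Lpin1*-/- higher, for 9 of the 10 genes and 10.7% of all genes. When libraries were rescaled by their median ratio, 9 of 10 were higher against 9.2% of all genes, and the share of higher genes among all altered genes moved from 29.9% to 46.9%.

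Fold changes of log2(RPKM + 1) with Benjamini-Hochberg adjusted p over all genes come from a single limma fit of the 4 groups, and they understate the change of genes near 1 RPKM such as *Fos* and *Ier3*. *Btg2* was higher in fasted *Lpin1*-/- by 3.59 (SE 0.56, adjusted p = 0.00184) and *Atf3* by 3.01 (SE 0.34, adjusted p = 0.000399). These were the 17th and 36th highest of the 11507 fold changes. Among the AP-1 genes, *Jun* was higher by 2.17 (SE 0.47, adjusted p = 0.00914), *Jund* by 2.14 (SE 0.27, adjusted p = 0.000654), *Junb* by 1.64 (SE 0.43, adjusted p = 0.0212), and *Fos* by 1.29 (SE 0.24, adjusted p = 0.00446). *Ier2*, the gene with the smallest spread, was higher by 1.49 (SE 0.19, adjusted p = 0.000633), and *Myc* by 1.93 (SE 0.57, adjusted p = 0.0360). *Ier3* was at 1.16 (SE 0.44, adjusted p = 0.0912) with no overlap of its libraries, and *Egr1* at −0.21 (95% interval −1.60 to 1.18, adjusted p = 0.848). The call of *Myc* was lost without 5 single libraries, replicates 2 and 3 of fasted *Lpin1*+/+, replicate 3 of fasted *Lpin1*-/-, replicate 1 of refed *Lpin1*+/+, and replicate 2 of refed *Lpin1*-/- (adjusted p 0.0509 to 0.107). That of *Junb* was lost without replicate 3 of fasted *Lpin1*+/+ or replicates 2 or 3 of fasted *Lpin1*-/- (adjusted p 0.0632 to 0.0848). Without the 3 libraries that stood apart, 9 of 10 genes were higher, *Ier3* included, and *Egr1* was at 0.87 (adjusted p = 0.242).

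**Figure D2:**
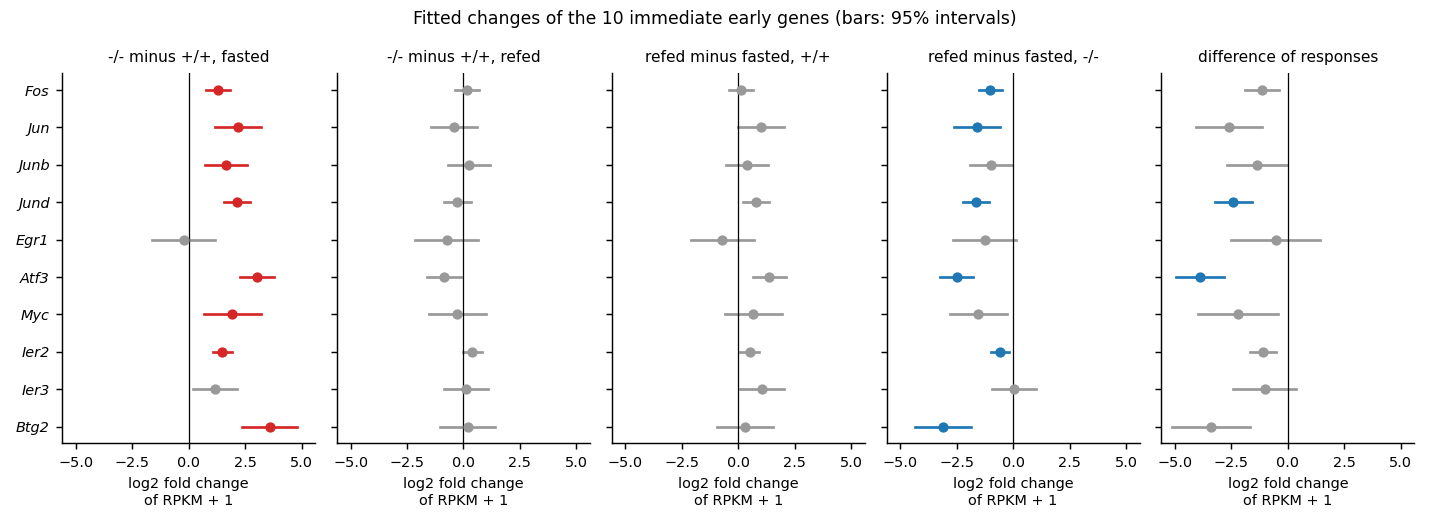
Fitted log2 fold changes of RPKM + 1 (horizontal axes) for the 10 genes (rows) in the 5 comparisons, with unadjusted 95% intervals as bars. Red is higher and blue lower at an adjusted p under 0.05, and gray did not pass. In fasted liver 8 genes were higher in *Lpin1*-/- (5.63% of all genes were). After refeeding 0 differed between genotypes (6.67% of all genes did), and 6 fell on refeeding of *Lpin1*-/- mice (2.92% of all genes did).

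Marker sums of other cell types were uneven between the fasted groups, and those of stellate cells did not overlap. The stellate cell markers summed to 204 to 300 RPKM, against 72.9 to 170 in fasted *Lpin1*+/+, and the Kupffer cell markers to 374 to 1014, against 196 to 406. The sums were 55.2 to 176 and 9.40 to 128 for neutrophil, 47.4 to 70.1 and 22.6 to 55.4 for endothelial, 2.95 to 10.8 and 2.06 to 4.50 for lymphocyte, 24.9 to 452 and 32.1 to 45.8 for cholangiocyte, and 466 to 1940 and 575 to 848 for erythroid markers. Of the single markers tested in these 7 lists, *Lyve1*, 1 of 8 endothelial markers, was higher and no other was called, and no marker was at 0 in all libraries of a group. The fasted *Lpin1*-/- library with the highest Kupffer cell and neutrophil sums, replicate 1, was the lowest of its group for 8 of the 10 immediate early genes and for 54.8% of all genes. In whole liver, fewer cells of a type and less RNA per cell cannot be told apart, and the part of cell composition in the result was not tested.

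After refeeding, 0 of the 10 genes differed between genotypes by limma, where 6.67% of all genes did (2.6% higher and 4.07% lower in *Lpin1*-/-). *Atf3* alone had an unadjusted p under 0.05. Its *Lpin1*-/- libraries all lay below the *Lpin1*+/+ ones, at −0.87 (SE 0.34, adjusted p = 0.156), and those of *Ier2* all lay above, at 0.40 (SE 0.19, adjusted p = 0.233). Separation of this kind was seen for 19.1% of all genes with *Lpin1*-/- lower and 14.8% with *Lpin1*-/- higher. The median log2 fold change was −0.07 over the 10 genes and −0.07 over all genes. The unadjusted 95% intervals of the difference were −0.37 to 0.68 for *Fos*, −1.46 to 0.59 for *Jun*, −0.86 to 0.31 for *Jund*, and −1.04 to 1.42 for *Btg2*. They were −2.14 to 0.65 for *Egr1* and −1.52 to 0.98 for *Myc*. The estimates from fasted liver lay outside these intervals for *Fos*, *Jun*, *Jund*, *Btg2*, and *Myc*. Of these genes, the direct test of the difference between the states, given below, passed for *Jund* alone. No alternative gave a call in this comparison.

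Refeeding of *Lpin1*+/+ mice altered 0 of the 10 genes at an adjusted p under 0.05 in limma, against 1.72% of all genes (1.52% higher and 0.2% lower). At an unadjusted p under 0.05 there were 4, *Atf3*, *Jund*, *Ier2*, and *Ier3*, and these 4 were also those whose refed libraries all lay above the fasted ones, as did 14.6% of all genes. No member had all refed libraries below the fasted ones, as 3.46% of all genes had. *Atf3* came closest, at 1.38 (SE 0.34, adjusted p = 0.0753), and it passed with a pseudocount of 0.1, without fasted *Lpin1*-/- replicate 1 or 3, or without the 3 libraries that stood apart (adjusted p 0.0325 to 0.0486). *Jund* was at 0.78 (SE 0.27, adjusted p = 0.211) and *Ier2* at 0.50 (SE 0.19, adjusted p = 0.244). *Fos*, *Junb*, and *Btg2* were at 0.13, 0.39, and 0.29, and each turned negative without refed *Lpin1*+/+ replicate 2. That library was the highest of its group for 10 of the 10 genes and for 35.9% of all genes. It had the highest sums of Kupffer cell markers (980 RPKM), neutrophil markers (99.9, against 14.2 and 4.75), and lymphocyte markers (17.0, against 1.73 and 0.813) in its group, and their part in its levels was not tested.

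Refeeding of *Lpin1*-/- mice lowered 6 of the 10 genes, *Fos*, *Jun*, *Jund*, *Atf3*, *Ier2*, and *Btg2*, while 20.7% of all genes were altered, with 2.92% lower and 17.8% higher. *Btg2* fell by 3.10 on the log2 scale (SE 0.56, adjusted p = 0.00411) and *Atf3* fell by 2.50 (SE 0.34, adjusted p = 0.00103). These corresponded to fasted group means 10.4 and 9.49 times the refed ones. The other called changes were −1.63 for *Jund* (SE 0.27, adjusted p = 0.00255), −1.59 for *Jun* (SE 0.47, adjusted p = 0.0332), and −0.59 for *Ier2* (SE 0.19, adjusted p = 0.0434), and *Fos* fell by 1.00 (SE 0.24, adjusted p = 0.0142). *Myc* was lower in every refed library, at −1.54 (adjusted p = 0.0758), *Egr1* was at −1.25 (adjusted p = 0.180), and *Junb* at −0.99 (adjusted p = 0.119). *Ier3* was at 0.02, with a 95% interval of −0.95 to 0.99. Libraries did not overlap, with refed lower, for 7 of 10 genes and 9.26% of all genes, and with refed higher for 0 of 10 and 37.5% of all genes. The median log2 fold change was −1.40 over the 10 genes and 0.25 over all genes.

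The calls of *Jund*, *Atf3*, and *Btg2* on refeeding of *Lpin1*-/- mice held in every alternative in which they were tested. *Ier2* lost its call without any 1 of 9 libraries, *Jun* without any 1 of 5, and *Fos* without refed *Lpin1*-/- replicate 3 (adjusted p = 0.0613). Without the 3 libraries that stood apart, 9 of the 10 genes fell, all but *Ier3*. After rescaling, 7 of 10 fell against 6.14% of all genes, and the share of higher genes among all altered genes moved from 85.9% to 59.2%. This comparison and the one between fasted genotypes share the fasted *Lpin1*-/- libraries, so their counts are not independent. The Kupffer cell marker sum was 121 to 278 RPKM in refed *Lpin1*-/- and 374 to 1014 in fasted *Lpin1*-/-, with 1 of 11 Kupffer cell markers, *Clec4f*, lower, and the neutrophil sum was 29.2 to 58.2 and 55.2 to 176. The part of these cells in the result was not tested.

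**Figure D3:**
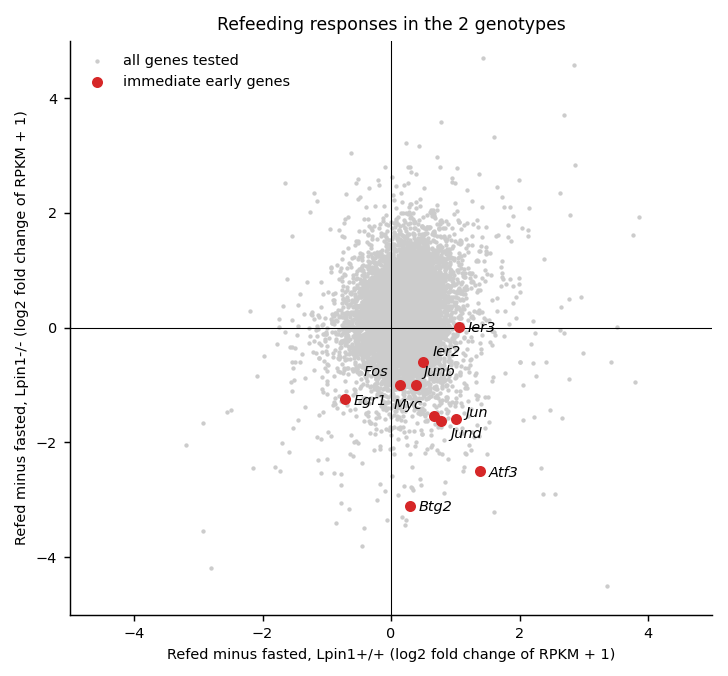
Log2 fold change of RPKM + 1 on refeeding in *Lpin1*+/+ (horizontal axis) and *Lpin1*-/- mice (vertical axis) for the 11507 genes tested (gray) and the 10 immediate early genes (red). The red points of 8 genes lie below 0 on the vertical axis and above 0 on the horizontal one, with *Atf3* at 1.38 and −2.50.

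A test of the difference between the refeeding responses of the genotypes found 2 of the 10 genes altered, *Atf3* and *Jund*, both with the more negative response in *Lpin1*-/-, against 0.487% of all genes in that direction, 0.791% in the other, and 1.28% in either. The difference was −3.88 for *Atf3* (SE 0.48, adjusted p = 0.00664), the 7th smallest p of all genes, and −2.41 for *Jund* (SE 0.38, adjusted p = 0.0157). *Atf3* held in every alternative in which it was tested, and *Jund* lost its call without refed *Lpin1*-/- replicate 2 or 3 (adjusted p 0.0595 and 0.0577). *Btg2* was at −3.40 (adjusted p = 0.0619), *Jun* at −2.61 (adjusted p = 0.0767), and *Ier2* at −1.09 (adjusted p = 0.0666). These 3 passed after rescaling of the libraries or without the 3 libraries that stood apart, which gave 5 of 10 genes in either case. The estimate was negative for all 10 genes, with a median of −1.80, against 0.09 over all genes. For *Fos*, *Junb*, *Myc*, *Egr1*, and *Ier3* a difference between the responses was not called under any alternative.

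Libraries of the same group differed in these genes more than in most others. The within-group SD of log2(RPKM + 1) had a median of 0.61 over the 10 genes, against 0.32 over all genes. *Egr1* (0.91), *Myc* (0.81), and *Btg2* (0.80) had an SD larger than at least 95.6% of all genes, and *Jun*, *Ier3*, and *Junb* one larger than 89.2% to 91.8%. *Jund* and *Fos* were near the middle, at 0.35 and 0.30, and *Ier2* was steadier than most, with 18% of genes below its 0.20. The highest value of a group fell in the same library for most members: fasted *Lpin1*+/+ replicate 1 for 7 of 10, refed *Lpin1*+/+ replicate 2 for 10, fasted *Lpin1*-/- replicate 3 for 8, and refed *Lpin1*-/- replicate 1 for 8. Over all genes these libraries were the highest of their group for 55.4%, 35.9%, 37.4%, and 48.7%. Without refed *Lpin1*+/+ replicate 2 the median SD was 0.42.

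Across the 12 libraries, 8 members correlated with the mean z-score of the other 9 at Pearson's r from 0.82 (*Ier2*) to 0.96 (*Jun*). *Ier3* was at 0.61 and *Egr1* at 0.31. The 6 genes outside the set that were most like the mean z-score of the 10 members were *Lrrc8c* (r = 0.959, Spearman's rho = 0.930), *Dusp8* (0.951 and 0.923), *Kctd5* (0.947 and 0.853), *Klf6* (0.945 and 0.951), *Gpatch3* (0.945 and 0.888), and *Mafk* (0.943 and 0.979). These values describe 12 libraries that share 4 groups and carry no test. *Klf6*, a Krüppel-like factor, was 7.90 to 19.6 RPKM in fasted *Lpin1*-/- and 0.99 to 3.16 in fasted *Lpin1*+/+, and *Mafk*, a small Maf protein that pairs with other bZIP factors, was 10.8 to 12.5 and 2.52 to 6.25.

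Other immediate early genes and relatives of the members were taken as 4 lists of 66 symbols, of which 54 passed the filter. These lists too were chosen with earlier results of these data known, so the counts below describe and do not test them. In fasted liver 22 of the 54 were higher in *Lpin1*-/- and 2 were lower, beside 5.63% and 13.2% of all genes, with a median log2 fold change of 1.04. *Klf4* and *Cxcl2*, both among the 22, would not have passed the filter without the fasted *Lpin1*-/- libraries. Their calls are thus not independent of the filter. The increase was largest for *Gadd45g* and *Gadd45b*, which encode stress sensors upstream of p38 and JNK. *Gadd45b* was 102, 171, and 222 RPKM in fasted *Lpin1*-/- and 6.48, 4.77, and 6.00 in fasted *Lpin1*+/+ (log2 fold change 4.56, SE 0.37, adjusted p = 0.000109), and *Gadd45g* was 330, 374, and 715, against 22.6, 33.7, and 5.08 (4.71, SE 0.62, adjusted p = 0.000836). Of the transcription factors that are neither AP-1 nor EGR proteins, 9 of 17 were higher and 0 lower. They were led by *Csrnp1* (3.17, SE 0.35, adjusted p = 0.000399) and the clock gene *Per1* (2.55, SE 0.66, adjusted p = 0.0201).

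Among 10 AP-1 and small Maf relatives, 3 were higher (5.63% of all genes were), *Maff* (2.37, adjusted p = 0.0230), *Mafk* (1.40, adjusted p = 0.0104), and *Jdp2* (1.05, adjusted p = 0.0279). *Maff* rested largely on 1 library, with 39.0 RPKM in fasted *Lpin1*-/- replicate 3 and 4.27 and 4.40 in the others. Of the EGR relatives and their NAB corepressors, 2 of 5 passed the filter, *Nab1* at −0.56 (adjusted p = 0.105) and *Nab2* at −0.27 (adjusted p = 0.687) in fasted liver. *Phlda1*, a PI3K and AKT antagonist, went the other way and was lower in fasted *Lpin1*-/- (0.926, 2.65, and 4.11 RPKM against 18.3, 9.37, and 12.0, a fold change of −2.06, adjusted p = 0.00252), as was *Cyr61*, a matricellular protein under YAP control (−1.08, adjusted p = 0.0468). *Phlda1* rose on refeeding in both genotypes, by 1.99 in *Lpin1*+/+ (adjusted p = 0.0181) and 2.57 in *Lpin1*-/- (adjusted p = 0.000934).

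**Figure D4:**
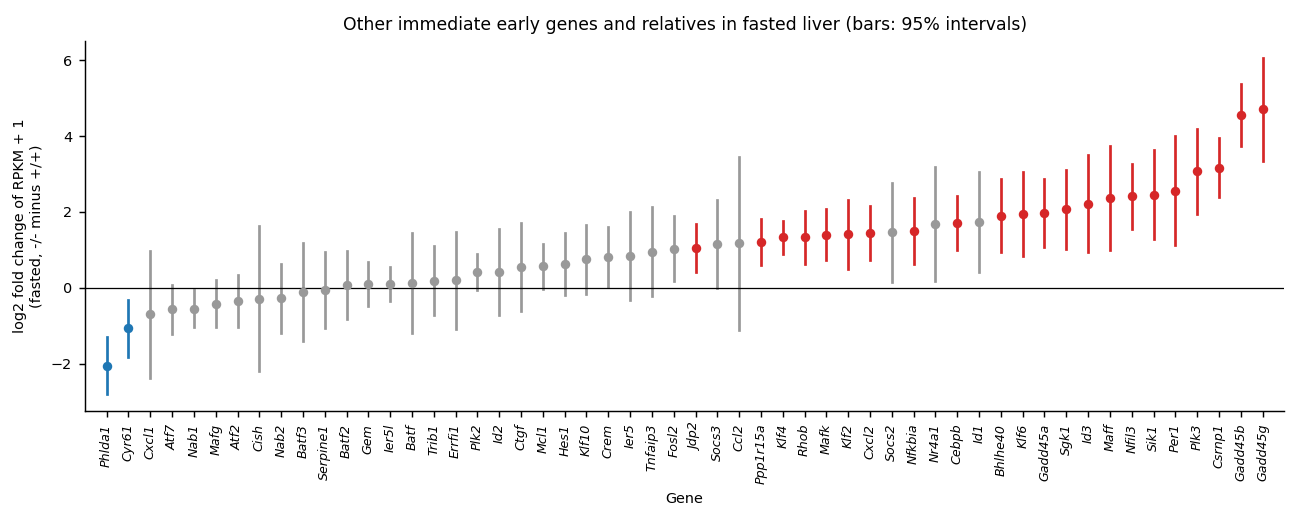
Log2 fold change of RPKM + 1, *Lpin1*-/- minus *Lpin1*+/+, in fasted liver for the 54 tested genes of the 4 lists of other immediate early genes and relatives, ordered by size, with unadjusted 95% intervals. Red genes were higher (22) and blue genes lower (2) at an adjusted p under 0.05.

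On refeeding of *Lpin1*-/- mice 13 of the 54 fell and 2 rose, with a median of −0.38, where 2.92% of all genes fell and 17.8% rose. *Gadd45b* fell by 3.05 (SE 0.37, adjusted p = 0.000689), *Gadd45g* by 2.85 (adjusted p = 0.00937), the transcriptional repressor gene *Nfil3* by 2.31 (adjusted p = 0.00306), *Csrnp1* by 2.12 (adjusted p = 0.00277), *Maff* by 2.08 (adjusted p = 0.0371), and *Mafk* by 1.07 (adjusted p = 0.0321). *Nab1*, whose protein restrains EGR factors, rose by 0.76 (adjusted p = 0.0337). In *Lpin1*+/+ mice 1 of the 54, *Phlda1*, was altered by refeeding, near the 1.72% of all genes. Between refed genotypes 2 were higher and 2 lower, near the shares of all genes (2.6% and 4.07%). *Gadd45b* was higher in *Lpin1*-/- at 2.29 (adjusted p = 0.00652) and *Gem* at 1.22 (adjusted p = 0.0207; 0.09 in fasted liver, adjusted p = 0.836), and *Cyr61* at −1.74 (adjusted p = 0.0141) and *Phlda1* at −1.47 (adjusted p = 0.0290) were lower. The response to refeeding differed between genotypes for *Csrnp1* (−2.84, adjusted p = 0.0252) and for *Cxcl2*, a neutrophil-attracting chemokine (−2.17, adjusted p = 0.0458). *Cxcl2* was low, at 1.26 to 4.39 RPKM in fasted *Lpin1*-/- and 0 to 1.68 elsewhere, and passed the filter only through the fasted *Lpin1*-/- libraries.

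MAP kinases carry the signals that induce the members. Of 15 MAP kinases tested, 1 was higher and 2 lower in fasted *Lpin1*-/- liver, shares near those of all genes (5.63% higher and 13.2% lower). *Map2k6*, for a kinase that activates p38, was 14.9, 21.6, and 51.6 RPKM against 2.93, 1.82, and 1.49 (log2 fold change 3.14, SE 0.37, adjusted p = 0.000472), while *Rps6ka1* (−0.99, adjusted p = 0.0247) and *Map2k3* (−0.74, adjusted p = 0.0257) were lower. On refeeding of *Lpin1*-/- mice *Map2k6* fell by 2.76 (adjusted p = 0.000919) while *Rps6ka1* (1.02, adjusted p = 0.0206) and *Map2k3* rose. The response of *Map2k6* differed between genotypes by −2.96 (adjusted p = 0.0252). *Mapk3*, which encodes ERK1, was lower in refed *Lpin1*-/- than refed *Lpin1*+/+ (−0.84, adjusted p = 0.0458).

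Of 10 MAP kinase phosphatases and ERK inhibitors, 2 were higher in fasted *Lpin1*-/- (5.63% of all genes were), *Dusp1* (2.88, SE 0.43, adjusted p = 0.00148), which is itself induced as an immediate early gene, and *Dusp8* (1.30, adjusted p = 0.0244). *Dusp8* was 0.66 to 3.84 RPKM in fasted *Lpin1*-/- and 0.049 to 1.19 elsewhere. It would not have passed the filter without the fasted *Lpin1*-/- libraries, so its call is not independent of the filter. *Dusp1* was also higher in refed *Lpin1*-/- (2.15, adjusted p = 0.0148), and *Dusp6*, a phosphatase of ERK, rose on refeeding of *Lpin1*-/- mice (1.68, adjusted p = 0.00135). Of 9 genes for serum response factor, its cofactors, and CREB-type activators, *Elk1* alone was higher in fasted *Lpin1*-/- (0.87, adjusted p = 0.0278), and *Creb1* alone rose on refeeding of *Lpin1*-/- mice (0.87, adjusted p = 0.0181). Of all genes, 5.63% were higher in the first comparison and 17.8% rose in the second. Of 6 genes for proteins that bind AU-rich elements, which govern the decay of many immediate early mRNAs, *Elavl1*, for a stabilizing protein, was the one called. It rose on refeeding of *Lpin1*-/- mice (1.35, adjusted p = 0.00661), as did 17.8% of all genes.

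*Btg3* was the 1 of 4 tested relatives of *Btg2* that was higher in fasted *Lpin1*-/- (1.92, adjusted p = 0.000307), where 5.63% of all genes were. *Btg3* and *Btg1* fell on refeeding of *Lpin1*-/- mice, by 1.39 (adjusted p = 0.00146) and 1.09 (adjusted p = 0.0271), where 2.92% of all genes fell. *Btg3* was 2.78 to 4.54 RPKM in fasted *Lpin1*-/- and 0.063 to 1.20 elsewhere. It would not have passed the filter without the fasted *Lpin1*-/- libraries, so its calls are not independent of the filter. Of 8 p53 target genes besides *Btg2*, 3 were higher in fasted *Lpin1*-/- and 0 lower, beside 5.63% and 13.2% of all genes. They included the cell cycle inhibitor gene *Cdkn1a*, at 147, 257, and 208 RPKM against 36.8, 4.66, and 4.53 (4.24, adjusted p = 0.00392), and *Trp53inp1*, at 90.5, 77.5, and 169 against 29.1, 5.63, and 4.95 (3.34, adjusted p = 0.00807). The third was *Sesn1*, a stress gene, at 23.6, 24.5, and 48.3 against 4.46, 1.81, and 3.20. It fell by 3.31 on refeeding of *Lpin1*-/- mice (adjusted p = 0.000350), and its response differed between genotypes by −3.47 (adjusted p = 0.00913). *Bbc3*, for a pro-apoptotic protein, also fell on refeeding of *Lpin1*-/- mice. *Trp53inp1* was also higher in refed *Lpin1*-/- (2.98, adjusted p = 0.0294), at 138, 21.3, and 29.6 RPKM against 4.29, 5.24, and 4.81. Replicate 1 was thus far above the others of its group.

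Of 11 tested genes of the wider MYC network, 1 was higher in fasted *Lpin1*-/- (5.63% of all genes were), the antagonist gene *Mxd1* (1.11, adjusted p = 0.0371). *Mxd1* fell by 1.13 on refeeding of *Lpin1*-/- mice (adjusted p = 0.0339), while *Mlxipl*, which encodes the glucose-sensing factor ChREBP, rose by 1.43 (adjusted p = 0.0138) and its partner *Mlx* by 1.26 (adjusted p = 0.00432). The 2 of 11 that rose were near the share of all genes, 17.8%, and 2.92% of all genes fell. Of 14 known targets of c-Myc, 1 was higher in fasted *Lpin1*-/-, *Nop58* (0.86, adjusted p = 0.0147), and 1 lower, *Ldha* (−1.36, adjusted p = 0.00308), beside 5.63% and 13.2% of all genes. Refeeding raised 5 of the 14 in each genotype, beside 1.52% of all genes in *Lpin1*+/+ and 17.8% in *Lpin1*-/-. *Srm*, for spermidine synthesis, rose by 2.04 in *Lpin1*+/+ (adjusted p = 0.0120) and 1.74 in *Lpin1*-/- (adjusted p = 0.00310), *Cad*, for pyrimidine synthesis, by 1.55 in *Lpin1*+/+ (adjusted p = 0.0111) and 0.91 in *Lpin1*-/- (adjusted p = 0.0138), and *Nop56*, of the nucleolus, by 1.26 in *Lpin1*+/+ (adjusted p = 0.0111) and 1.60 in *Lpin1*-/- (adjusted p = 0.000499). *Cad* was lower in refed *Lpin1*-/- than in refed *Lpin1*+/+ (−1.11, adjusted p = 0.0139).

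*Atf3* is also a target of the integrated stress response, and other genes of that response were called in both directions. Of 8 tested, *Atf4* was higher in fasted *Lpin1*-/- (1.00, adjusted p = 0.00832) and *Atf5* lower (−2.46, adjusted p = 0.000765), beside 5.63% and 13.2% of all genes. *Atf5* was 51.5, 86.6, and 94.1 RPKM in fasted *Lpin1*-/- and 500.1, 324, and 449 in fasted *Lpin1*+/+. On refeeding of *Lpin1*-/- mice *Atf5* rose by 1.92 (adjusted p = 0.00276), and *Chac1* and *Atf4* fell by 2.54 (adjusted p = 0.0390) and 0.71 (adjusted p = 0.0356). There 17.8% of all genes rose and 2.92% fell. *Chac1* was uneven in fasted *Lpin1*-/-, at 2.27, 13.3, and 52.7 RPKM, against 1.51, 1.08, and 1.46 in refed *Lpin1*-/-. In *Lpin1*+/+ mice *Ddit3*, which encodes CHOP, rose by 1.70 (adjusted p = 0.0299), where 1.52% of all genes rose.

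Skipped exon events were listed for 2 of the 10 genes, *Atf3* and *Myc*, in the tables of genotype differences. The columns of those tables name no group, so reads were summed over the 6 libraries of a feeding state and no comparison was made. The 43-base *Atf3* exon at chr1:191177432-191177474 had 226 inclusion reads and 5 skipping reads in fasted liver, all 5 in 1 library, and 65 and 2 in refed liver. Inclusion reads per library ran from 5 to 94 in fasted and from 6 to 28 in refed liver. The 769-base *Myc* exon at chr15:61987510-61988278 was listed for fasted liver alone, with 5102 inclusion reads and 2 skipping reads. Inclusion reads comprise reads inside the exon, so their counts do not compare directly with skipping reads. Corrected for length, pooled inclusion of the *Atf3* exon was 96.5% in fasted and 95.2% in refed liver. That of the *Myc* exon was 99.5% in fasted liver. The other 8 genes had no listed event. A skipped exon needs an exon on each side. Annotated transcripts have 1 exon for *Jun*, *Jund*, and *Ier2* and at most 2 for *Junb*, *Ier3*, and *Btg2*, so no annotated event was possible there.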

How the data were processed

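RNA-Seq was run on liver of 12 mice with a stranded kit and 69 bp paired-end reads, spread over lanes so that replicates of a group ran on different lanes. The authors aligned reads to GRCm38 with HISAT2 (2.0.5), counted them per gene with HTSeq (0.6.0), and deposited RPKM for 22456 genes. The sources used here also name DESeq2 (1.20.0), which was not applied here because RPKM values are no counts. The authors deposited rMATS read counts of skipped exons, of which only sums and ranges were used, since their columns name no group. The planned permutation test of exon inclusion was therefore not made. Columns holding the authors' own p-values, FDR, and inclusion differences were not used.

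A pseudocount of 1 was added to RPKM before taking log2, genes averaging under 0.5 RPKM were dropped (11507 stayed), and all contrasts came from 1 limma fit (3.58.1, R 4.3.3) of 4 group means with a variance trend and Benjamini-Hochberg adjustment over all genes, threshold 0.05. The method was tested on simulated data. Members and gene lists were chosen with earlier results of these data known. Named genes were the 10 members, *Lpin1*, up to 2 altered genes per direction with the largest fold change from each list and comparison, and the 6 genes most like the members. *Jdp2*, *Nab2*, *Klf4*, *Lyve1*, *Clec4f*, and the third genes of short counts were named after their values were seen. A gene that the rule named is not reported here. Depth was estimated from the spacing of low RPKM values and exon lengths of GENCODE M21, so its scale is approximate. It was 94.0 to 125.7 M mapped reads per library. P-values set a difference of group means against the spread between libraries within the 4 groups. That spread was drawn toward a trend over all genes. Figures were drawn with matplotlib (3.10.9) in Python (3.11.15).

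Replicate numbers are shared between groups, but the labels do not say that they mark a litter, cage, or day. Deviations from the group means correlated at −0.474 to 0.743 over 18 same-numbered pairs of libraries, 8 of them over 0.1. For the refed genotypes all 3 pairs were over 0.1 (0.162 to 0.297), as they were for fasted *Lpin1*+/+ and refed *Lpin1*-/- (0.390 to 0.743), which no test compares directly. Settings tried in turn were 0.1 as pseudocount, a filter at 5 RPKM or none, median-ratio rescaling, a replicate block, no variance trend, only the 6 libraries compared, each library left out in turn, and, chosen after seeing the data, 3 libraries left out together.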

Additional observations from a re-analysis of the deposited data

Results flagged for a closer look

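The responses to refeeding differed between genotypes, by the test of the difference itself, for 2 of the 10 immediate early genes, beside 1.28% of all genes. The difference on the log2 scale, *Lpin1*-/- minus *Lpin1*+/+, was −3.88 for *Atf3* and −2.41 for *Jund*. In both genes every refed library lay above every fasted library in *Lpin1*+/+ and below every fasted library in *Lpin1*-/-. Among the related genes named, the same test passed for *Csrnp1* (−2.84) and *Cxcl2* (−2.17), 2 of the 54 other immediate early genes and relatives. It also passed for *Map2k6* (−2.96), 1 of 15 MAP kinases, and *Sesn1* (−3.47), 1 of 8 p53 target genes. *Cxcl2* passed the filter on low values only through the fasted *Lpin1*-/- libraries. The call of *Jund* was lost without refed *Lpin1*-/- replicate 2 (adjusted p = 0.0595) or 3 (adjusted p = 0.0577), and that of *Atf3* held with each library left out.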

How the results depend on the processing

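For the counts of altered immediate early genes, the settings that moved a count by over 1.5 times were these. With a pseudocount of 0.1, 1 gene was altered on refeeding of *Lpin1*+/+ mice (0 as reported). With a minimum of 5 RPKM, at which 6 of the 10 genes were tested, 1 gene differed in its response to refeeding (2 as reported), and fewer members were tested. With rescaled libraries 5 did, and without the 3 libraries that stood apart 5 did as well and 1 was altered on refeeding of *Lpin1*+/+ mice. The cause of these last moves was not tested. With each library left out in turn, the counts ranged from 0 to 1 for refeeding in *Lpin1*+/+, 3 to 6 for refeeding in *Lpin1*-/-, 6 to 9 for fasted genotypes, and 1 to 4 for the difference of responses, and stayed at 0 for refed genotypes. The lowest of these for refeeding in *Lpin1*-/- was without its refed replicate 3 (3), the highest for the difference without fasted *Lpin1*+/+ replicate 1 (4), and the lowest without refed *Lpin1*-/- replicate 2 or 3 (1). The median within-group SD ranged from 0.419 to 0.647.

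With the replicate number as a block, 0 members were altered on refeeding of *Lpin1*+/+, 4 on refeeding of *Lpin1*-/-, 7 between fasted and 0 between refed genotypes, and 2 in the difference of responses. The block ended the calls of *Jun* (adjusted p = 0.0555) and *Ier2* (adjusted p = 0.0738) on refeeding of *Lpin1*-/- and of *Myc* between fasted genotypes (adjusted p = 0.0652), and changed no other call of a member.

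Without the filter *Jun* on refeeding of *Lpin1*-/- (adjusted p = 0.0641) and *Myc* between fasted genotypes (adjusted p = 0.0760) were lost, and with only the 6 libraries compared *Ier2* (0.0776) and *Myc* (0.0600) were. *Ier3* between fasted genotypes passed under 5 settings (adjusted p 0.00636 to 0.215 over 19). Over all genes, altered genes on refeeding of *Lpin1*+/+ numbered 198 as reported, 76 rescaled, 93 with the block, 0 with only the 6 libraries compared, and 465 without the 3 libraries that stood apart, fasted genotypes 2168 and 1011 with only the 6 libraries, refed genotypes 767 and 1292 without the 3 libraries, and the difference of responses 147, 83 without the filter, 306 rescaled, and 81 with the block. With each library left out in turn these counts ran from 23 (without fasted *Lpin1*+/+ replicate 2) to 229 for refeeding of *Lpin1*+/+, 1122 (without refed *Lpin1*-/- replicate 2) to 3108 for refeeding of *Lpin1*-/-, 1037 (without fasted *Lpin1*+/+ replicate 3) to 2313 for fasted genotypes, 242 to 1046 for refed genotypes, and 30 to 191 for the difference of responses, the last 2 lowest without refed *Lpin1*-/- replicate 3.

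Signs turned only for estimates that were not called. *Ier3* on refeeding of *Lpin1*-/- was −0.24 rescaled and −0.15 without the 3 libraries, and without these *Fos* on refeeding of *Lpin1*+/+ was −0.16, *Egr1* between fasted genotypes 0.87, and *Myc* between refed genotypes 0.23. With 1 library left out, ranges crossing 0 were −0.14 to 0.38 for *Fos*, −0.10 to 0.76 for *Junb*, and −0.21 to 0.79 for *Btg2* on refeeding of *Lpin1*+/+, −0.21 to 0.16 for *Ier3* on refeeding of *Lpin1*-/-, −0.81 to 0.51 for *Egr1* between fasted genotypes, −1.25 to 0.069 for *Egr1* in the difference, and, between refed genotypes, −0.089 to 0.43 for *Fos*, −0.11 to 0.75 for *Junb*, −0.68 to 0.23 for *Myc*, −0.20 to 0.76 for *Ier3*, and −0.17 to 0.69 for *Btg2*. Rescaling moved the median of all genes from 0.19 to 0.02 for refeeding in *Lpin1*+/+, from 0.25 to −0.03 in *Lpin1*-/-, and from −0.14 to 0.01 between fasted genotypes.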
